A study of Homo sapiens with 16 samples.

Results

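Interferon-stimulated genes are genes whose transcription rises when a cell receives interferon. The members followed here are the 9 genes IFIT1, IFIT2, IFIT3, MX1, OAS1, OAS2, OAS3, IFI44 and IRF7. Every row of the deposited intensity table whose symbol is 1 of these names was taken, with each probe kept separate, which gave 15 probes of the 20589 rows of the table. Of these, 7 probes of 5 genes (IFI44, IFIT2, IFIT3, OAS1 and IRF7) passed the filter on dim probes, a detection p-value (against the negative control beads of an array) under 0.05 on at least 3 of 16 arrays, and the other 8 probes did not.

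The samples were MCF-10A cells, a nontransformed human breast epithelial cell line, treated with CP724,714, a small molecule inhibitor of the HER2 receptor tyrosine kinase, at 1 µM. RNA from parallel cultures was collected every 3 h from 0 to 45 h, the 0 h culture being untreated, and each of the 16 time points was measured on 1 Illumina human Ref8v2 array. All cultures, the 0 h culture included, were grown in medium that held hydrocortisone, insulin and epidermal growth factor, and the study's methods state a medium change at the start of treatment. No untreated culture followed over the same hours was analysed here, so the inhibitor, the new medium and time in culture cannot be told apart.

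Type I and type III interferons bind their receptors at the cell surface, and the receptor-bound kinases JAK1 and TYK2 then phosphorylate STAT proteins, among them STAT2. With IRF9 these form the complex ISGF3, which binds interferon-stimulated response elements in the promoters of its target genes. Many of the targets block viral replication, and some of them, such as IRF7, are themselves transcription factors that amplify interferon production. In epithelial cells many of these genes are kept at a low tonic level when no interferon is added.

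IFI44, a cytoplasmic protein of uncertain biochemical function, was above background on every array and had the widest course among the tested probes: its means at 12 to 21 h and 24 to 33 h were above that at 0 to 9 h, and from 36 h on it was back within its range of 0 to 9 h. IFIT2 was above background at 0 h, was at background from 3 to 33 h, and was above it again from 36 h on. One IRF7 probe followed a course opposite to that of IFI44, and IFIT1, MX1 and OAS2 were not above background on any array. The members thus did not move as 1 group in these cells.

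The promoters of these genes are known for response elements, and the sequences below show what such elements look like in IFI44, the member measured best, and in 3 members that were at or near background. The promoter table (RefSeq, GRCh38.p14, 250 bases before to 50 bases after each transcript start) matched 6 of the 9 members, with 10 windows, since some genes have several starts. IFIT2, OAS2 and IRF7 had no entry. The motif searched was a pair of GAAA half-sites with any 2 bases (NN) between them, on both strands, so that it reads TTTC, NN, TTTC where it lies on the minus strand, and no other motif was searched. The 170 bases before the transcript start are printed on the plus strand, with each match in capitals.
IFI44, chr1:78649619-78649788: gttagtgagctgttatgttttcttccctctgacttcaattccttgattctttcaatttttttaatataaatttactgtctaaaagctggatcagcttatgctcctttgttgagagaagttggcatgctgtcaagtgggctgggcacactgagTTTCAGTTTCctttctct
IFIT1, chr10:89392453-89392622: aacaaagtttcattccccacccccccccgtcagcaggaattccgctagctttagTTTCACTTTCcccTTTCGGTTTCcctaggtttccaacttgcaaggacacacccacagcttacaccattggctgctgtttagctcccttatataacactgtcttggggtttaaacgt
IFIT3, chr10:89327827-89327996: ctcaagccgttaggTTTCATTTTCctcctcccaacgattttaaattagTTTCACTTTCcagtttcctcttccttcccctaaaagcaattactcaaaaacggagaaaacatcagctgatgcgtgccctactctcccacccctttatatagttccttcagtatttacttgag
OAS3, chr12:112938304-112938473: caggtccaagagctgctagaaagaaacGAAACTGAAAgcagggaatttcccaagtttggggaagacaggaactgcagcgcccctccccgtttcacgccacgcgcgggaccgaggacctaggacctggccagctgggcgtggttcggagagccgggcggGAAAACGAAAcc

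IFI44 held 1 match, 18 to 9 bases before this start, and IFIT1, IFIT3 and OAS3 held 2 matches each. Over all member windows, 8 of 10 held at least 1 match, in 5 of the 6 genes with an entry, against 3.57% of the 35116 windows in the table. The IFI44 windows overlap and share the same genomic match, which is counted in each of them. The OAS1 window held none, and MX1 held a match in the windows of 2 of its 3 starts. A match says only that these letters stand in the window, and nothing about binding.

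Each array held the deposited intensity of every row, on a linear scale without normalization, and a detection p-value against the negative control beads of the same array. Median intensities of the arrays ranged from 210.4 to 253.9, and 50.15% to 52.89% of rows were above background, so the arrays were alike in sensitivity. The negative control mean, inferred from the detection p-values, was 192.6 to 198.6 at 0 to 9 h and 165.8 to 184.9 at 36 to 45 h, which means that the background was lower late in the series. Of 11 mammary epithelial markers, 9 were above background on all arrays (KRT14 was so on 1 array and TP63 on 10), with a summed level of 67050 to 104900. Of 7 leukocyte markers CD68 was above background on all arrays, CD14 on 12, PTPRC on 5 and LYZ on 1, and 3 were so on none, with a summed level of 1833 to 2714. Of 3 markers of plasmacytoid dendritic cells, a main source of type I interferon, CLEC4C was above background on no array, LILRA4 on 10 and IL3RA on 5. PECAM1 was so on 15 arrays, and the endothelial markers CDH5 and VWF and 3 fibroblast markers were so on none.

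To compare probes with the background without comparing their levels with each other, each intensity was expressed as its distance from the negative control mean of its array, in SD of the negative controls. IFI44 lay between 1.78 and 14.1 SD above that mean, with a median of 6.66, and was detected on 16 of 16 arrays. The OAS1 probe ILMN_2829 had a median distance of 2.40 and was also detected on all 16. The IRF7 probes ILMN_5194 and ILMN_4115 had medians of 2.48 and 1.995 and were detected on 15 and 13 arrays.

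The remaining probes were at or near background on most arrays. The second OAS1 probe, ILMN_2717, was detected on 9 arrays with a median distance of 1.26 SD. IFIT2 was detected on 5 arrays with a median distance of 0.771 and a highest value of 4.01 at 45 h. IFIT3 ILMN_1944 was detected on 3 arrays (0, 3 and 12 h), and OAS3, which synthesizes the oligoadenylates that activate RNase L, was detected on 2 (27 and 30 h, detection p-values 0.0381 and 0.0268).

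The 7 probes detected on no array stood for 5 genes. IFIT1, which binds viral RNA that lacks host cap methylation, had a median distance of -0.207 SD, and MX1, a dynamin-like GTPase that blocks influenza viruses, had one of -0.276. The 3 probes of OAS2 had medians of 0.288, -0.117 and -0.438, the IFIT3 probe ILMN_22925 had -0.410 and the OAS1 probe ILMN_2958 had -0.0716. A probe at background gives only an upper limit on its transcript, so no change of these genes was detectable with these probes. OAS1 and IFIT3 were thus measured by some of their probes and not by others.

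**Figure D1:**
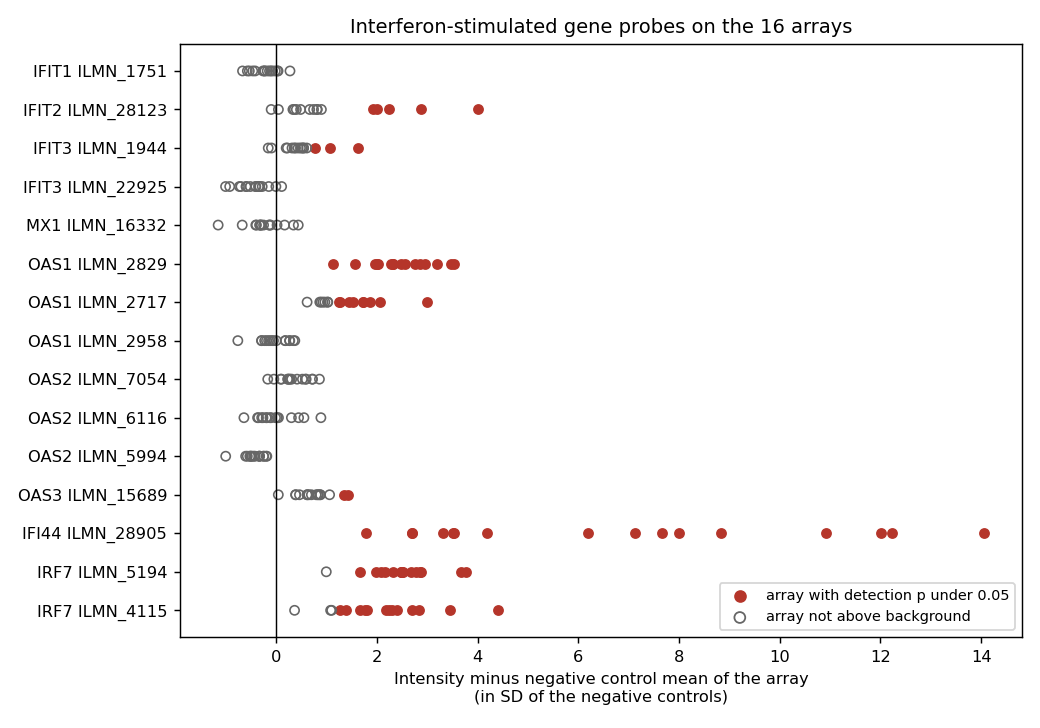
Distance of each member probe from the negative control mean of its array, in SD of the negative controls, for the 15 probes on 16 arrays; filled points are arrays with a detection p-value under 0.05. IFI44 reached 14.1 SD, 7 probes had no filled point, and the vertical line marks the negative control mean.

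For the tests, intensities were background corrected, quantile normalized and put on the log2 scale, where 1 unit is a doubling. Time was tested by a smooth curve through all 16 arrays (limma, a natural cubic spline with 3 degrees of freedom), and the series was also split into windows of 4 consecutive time points, 0 to 9 h, 12 to 21 h, 24 to 33 h and 36 to 45 h. The 4 arrays of a window are not replicates of a condition, and the SD given with a window mean also holds the change within that window. P-values were adjusted over all 11957 probes that passed the filter, and 0.05 was the threshold. RNA came from whole cultures, so less RNA per cell and fewer cells with that RNA cannot be told apart. By the curve, 54.7% of all tested probes were time-dependent, and 5 of the 7 member probes were, namely IFI44, IFIT2, OAS1 ILMN_2717 and both IRF7 probes. IFIT2 and IFIT3 passed the filter only through the few arrays on which they were high, so this count is a description of the probes that could be tested.

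IFI44 had log2 values of 7.08, 6.57, 7.56 and 8.15 at 0, 3, 6 and 9 h. They were 9.04, 8.88, 8.26 and 8.30 at 12 to 21 h and 8.82, 8.60, 8.32 and 8.07 at 24 to 33 h. At 36 to 45 h they were 7.19, 6.99, 7.16 and 7.30. The rise was thus already under way at 6 and 9 h, and the top was reached at 12 h. Values declined at each time point from 24 to 36 h, with the largest step down between 33 and 36 h. In deposited intensity the lowest value was 269 at 3 h and the highest 707 at 12 h, and the highest normalized value was 5.54-fold the lowest.

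The IFI44 window means were 7.34 ± 0.68, 8.62 ± 0.40, 8.45 ± 0.33 and 7.16 ± 0.13 (SD, 4 arrays each). IFI44 was time-dependent (adjusted p = 9.83e-05). It rose by 1.28 (SE 0.27) between 0 to 9 h and 12 to 21 h, a 2.42-fold change (adjusted p = 0.0017), with no overlap between both windows. It fell by 1.29 (SE 0.27) between 24 to 33 h and 36 to 45 h, a 2.45-fold change (adjusted p = 0.000965), again with no overlap. The first and last windows differed by -0.18 (SE 0.27, adjusted p = 0.646), a difference within the spread. Without background correction the highest value was 2.66-fold the lowest, and both window calls held.

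IFIT2, an RNA-binding protein of the same family as IFIT1, had a log2 value of 6.82 at 0 h and 5.79, 5.50 and 5.57 at 3, 6 and 9 h. From 12 to 33 h its 8 values lay between 5.69 and 5.95. At 36, 39, 42 and 45 h they were 6.54, 6.61, 6.97 and 7.45. The probe was above background at 0 h and on the last 4 arrays and on no array in between. In deposited intensity it read 294 at 0 h, 189 to 225 from 3 to 33 h, and 270, 252, 289 and 307 on the last 4 arrays, so the late rise is visible before any correction.

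The IFIT2 window means were 5.92 ± 0.61, 5.86 ± 0.12, 5.79 ± 0.10 and 6.89 ± 0.42. The probe passed the filter only through 0 h and the last window, where it was high, so a difference between those arrays and the others was favoured by the filter. With no filter on dim probes, which frees the test from that choice, the curve (adjusted p = 8.87e-05) and the late rise (adjusted p = 0.00102) were called as well. In the filtered set IFIT2 was time-dependent (adjusted p = 0.000168), and it rose by 1.11 (SE 0.24) from 24 to 33 h to 36 to 45 h (adjusted p = 0.00125), and since the earlier window was not above background the change was at least 1.73-fold. The last window was also above the first, by 0.97 (SE 0.24, adjusted p = 0.00442), although the 0 h value lay within the range of the last window. From 12 to 21 h it differed from 0 to 9 h by -0.06 (adjusted p = 0.884), and that direction turned when the 0 h or the 18 h array was left out.

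IFIT3, a partner that stabilizes IFIT1, was measured by ILMN_1944 on 3 arrays only. Its log2 value was 6.47 at 0 h, 5.95 at 3 h and 6.00 at 12 h, and the other 13 values lay between 5.49 and 5.87. The row combines several probes in the deposited table. No test of IFIT3 passed the threshold (curve adjusted p = 0.0849), and the 0 h value was at least 1.23-fold the lowest.

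OAS1, an oligoadenylate synthetase like OAS2 and OAS3, was followed by 2 tested probes, ILMN_2829, above background on all 16 arrays, and ILMN_2717, above it on 9. ILMN_2829 had log2 values of 6.16, 6.71, 6.85 and 6.64 at 0 to 9 h and 6.63, 7.004, 6.31 and 7.28 at 12 to 21 h. At 24 to 33 h they were 6.68, 6.88, 6.66 and 6.50, and at 36 to 45 h they were 6.82, 7.02, 7.11 and 7.28. The last window overlapped the earlier ones, and neither the curve (adjusted p = 0.0578) nor any window difference passed the threshold; the last window exceeded the first by 0.47 (SE 0.19, adjusted p = 0.0709). Under median scaling both the curve and that difference passed (adjusted p = 0.0377 for each).

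ILMN_2717 had log2 values of 6.23, 6.54, 5.83 and 6.37 at 0 to 9 h, and 5.95, 5.95, 5.97 and 6.05 at 12 to 21 h. At 24 to 33 h they were 6.17, 5.94, 6.02 and 6.22, and at 36 to 45 h they were 6.58, 6.51, 6.50 and 7.10. All 4 late values were above all values from 12 to 33 h. The probe was above background on 3, 0, 2 and 4 arrays of the 4 windows in turn. It was time-dependent (adjusted p = 0.0016) and rose by 0.59 (SE 0.15, adjusted p = 0.00564) from 24 to 33 h, a window partly at background, to 36 to 45 h. Its excess over the first window was 0.44 (SE 0.15, adjusted p = 0.0377), which lost its call without the 0, 6 or 45 h array. In deposited intensity the probe read 251, 267, 220 and 263 at 0 to 9 h and 273, 245, 249 and 272 at 36 to 45 h, over a lower background late, and without background correction the late excess over the first window was 0.19 (adjusted p = 0.0443). The log2 values of both OAS1 probes correlated weakly over the 16 arrays (r = 0.345).

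IRF7, the transcription factor that drives the second wave of interferon production, had 2 probes with different courses. ILMN_4115 had log2 values of 6.79, 6.93, 6.96 and 6.21 at 0 to 9 h, and 5.68, 6.04, 6.21 and 6.396 at 12 to 21 h. At 24 to 33 h they were 6.07, 6.37, 6.62 and 6.41, and at 36 to 45 h they were 6.70, 7.05, 7.21 and 7.58. It was therefore low where IFI44 was high and highest at the end. The probe was time-dependent (adjusted p = 0.000136), fell by 0.64 (SE 0.20, adjusted p = 0.0249) from the first to the second window, where 2 of 4 arrays were above background, and rose by 0.76 (SE 0.20, adjusted p = 0.00662) into the last window with no overlap. The early fall lost its call when the 3, 6, 12 or 15 h array was left out. The difference between the last and the first window, 0.41 (SE 0.20), did not pass (adjusted p = 0.138).

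ILMN_5194 had log2 values of 7.51, 7.09, 6.76 and 7.09 at 0 to 9 h, and 6.73, 6.96, 7.27 and 6.61 at 12 to 21 h. At 24 to 33 h they were 6.78, 6.73, 6.72 and 6.87, and at 36 to 45 h they were 6.39, 6.72, 6.56 and 6.09. It was highest at 0 h and lowest at 45 h, the reverse of ILMN_4115 in the last hours. The last window differed from the first by -0.67 (SE 0.17, adjusted p = 0.00651) with no overlap, and the curve passed as well (adjusted p = 0.00739), though not with a term for the first 8 against the last 8 arrays (adjusted p = 0.119) or without the 45 h array (adjusted p = 0.0531). That window call was lost when the step between 21 and 24 h was left out of the difference (-0.55, adjusted p = 0.149). The pair of IRF7 probes correlated negatively over the 16 arrays (r = -0.385, Spearman's rho = -0.415), so no direction can be given for IRF7 as a gene.

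**Figure D2:**
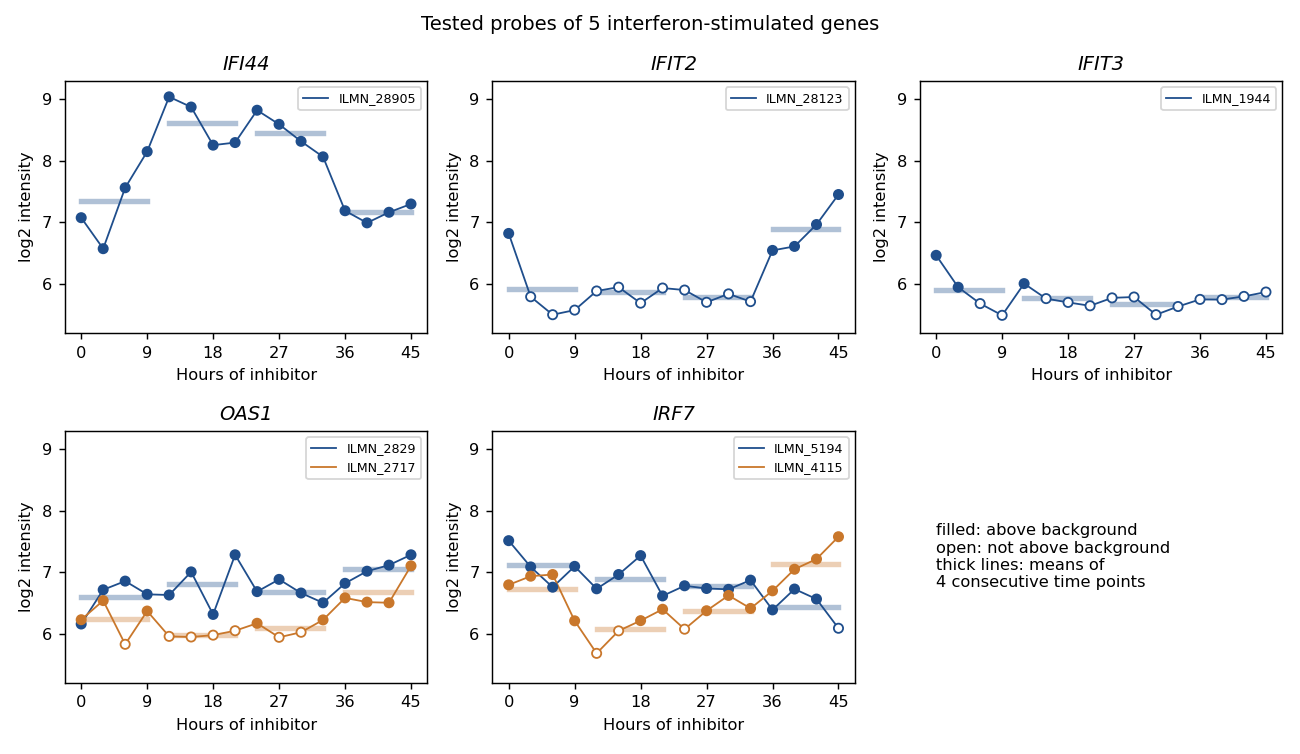
Log2 intensity of the 7 tested member probes against hours of inhibitor, 1 array per time point, with filled points above background and thick lines at the means of 4 consecutive time points. IFI44 was high from 12 to 33 h, IFIT2 was above background at 0 h and from 36 h, and the IRF7 probes crossed late in the series.

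Set beside all tested probes, the counts of member calls were as follows. From 0 to 9 h to 12 to 21 h, 29.5% of all tested probes were called, 15.1% as a rise and 14.4% as a fall, and of the 7 member probes IFI44 rose and IRF7 ILMN_4115 fell. From 12 to 21 h to 24 to 33 h, 0.0251% of all tested probes were called, all lower, and no member probe was called, at an adjusted or an unadjusted p under 0.05 by limma. From 24 to 33 h to 36 to 45 h, 38% were called, 19.3% as a rise and 18.7% as a fall, and of the member probes IFIT2, OAS1 ILMN_2717 and IRF7 ILMN_4115 rose while IFI44 fell. Between the first and the last window 31.2% were called, 16.2% as higher late and 15% as lower, and of the member probes IFIT2 and OAS1 ILMN_2717 were higher and IRF7 ILMN_5194 lower. These comparisons share windows, so they are not independent of each other.

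The median log2 change of the 7 member probes was -0.12 into the second window, -0.10 into the third and 0.38 into the last, against medians of all tested probes within 0.01 of 0 on each step. In the last step the 7 changes ran from -1.29 (IFI44) to 1.11 (IFIT2). IFIT2 passed the filter only through 0 h and the last window, and OAS1 and IRF7 count with 2 probes each. These medians therefore describe the tested probes and are no measure of a shift of the group. By the shares above, both steps in which members were called were steps in which many other genes were called too, and the step between them had almost no calls among all genes.

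**Figure D3:**
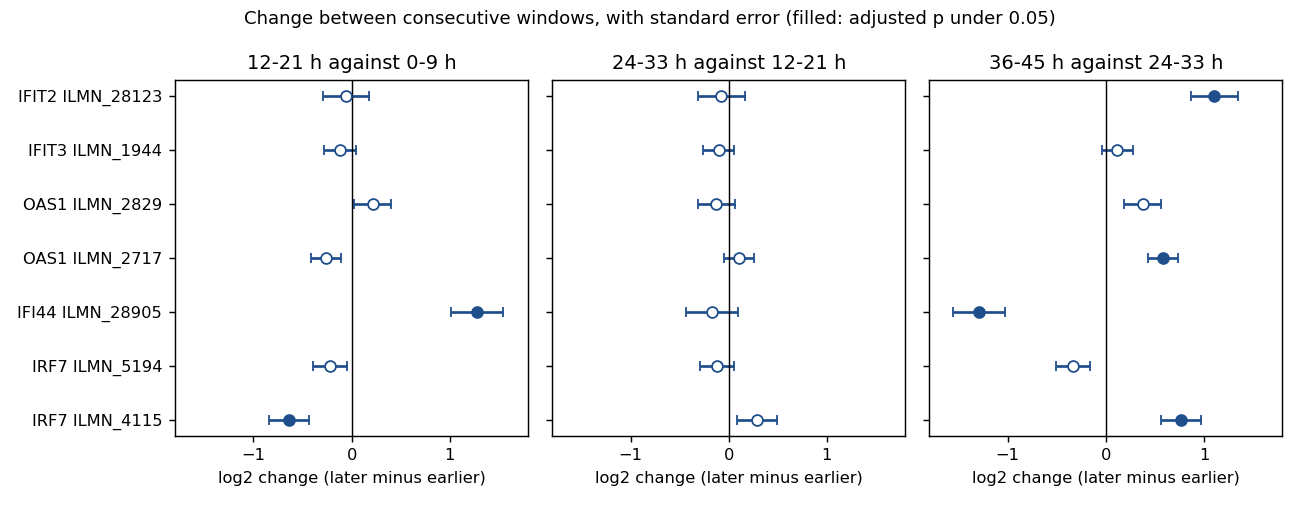
Log2 change of each tested member probe between consecutive windows of 4 time points (later minus earlier), with the standard error of the fit as bars; filled points have an adjusted p under 0.05. IFI44 rose by 1.28 and fell by 1.29, IFIT2 rose by 1.11 in the last step, and no point is filled in the middle step.

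Across the 16 arrays, IFI44 and IRF7 ILMN_4115 ran opposite to each other (r = -0.841). IFIT2 ran with OAS1 ILMN_2717 (r = 0.761) and with IRF7 ILMN_4115 (r = 0.677), and against IFI44 (r = -0.538). OAS1 ILMN_2829 ran against IRF7 ILMN_5194 (r = -0.786). These are descriptions of courses on the same arrays, whose points follow each other in time. Each tested member probe was also scaled to a mean of 0 and an SD of 1, and the mean course was taken. As members ran in opposite directions, that mean is not the course of any 1 member. Outside the members, the probe most like it was that of IRF1, a transcription factor (r = 0.919 over 16 arrays). IRF1 itself ran against IFI44 (r = -0.745). MYST1 and IFP38 were next most like the mean course (both r = 0.902). The probe most like IFI44 was that of SLC27A3, a fatty acid transport protein (r = 0.972), and the probe most like IFIT2 was that of FLJ25476 (r = 0.940).

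Other genes of the interferon pathway were taken from 6 lists of 107 genes, of which 106 were found in the table and 73 had a tested main probe, the brightest of the gene. Of the 73, 46 were time-dependent (63%, against 54.7% of all tested probes). The counts of time-dependent genes per list given below stand beside that same share of 54.7%. No list gene was called between 12 to 21 h and 24 to 33 h, as was the case for the members.

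Of the 15 ligands and receptors, all 9 listed interferon ligands and the type III receptor chain IFNLR1 were not above background on any array. The 5 other receptor chains were measured on all arrays. IFNGR1, a chain of the interferon-gamma receptor, rose by 0.88 from 24 to 33 h to 36 to 45 h (1.84-fold, adjusted p = 0.00016), with intensities of 3511, 3187, 3685 and 4098 on the last 4 arrays against 2048 to 2711 at 24 to 33 h. IL10RB, a chain that type III interferon and interleukin-10 receptors share, was 0.96 higher in the last window than in the first (adjusted p = 0.000387), a call lost when the step between 21 and 24 h was left out (0.67, adjusted p = 0.0756). For the type I receptor chains, IFNAR1 changed by 0.55 in the last step (adjusted p = 0.0788) and IFNAR2 by -0.53 (adjusted p = 0.0579). The arrays thus gave a signal for these receptor chains throughout and for none of the 9 listed ligands at any time. Each ligand had 1 probe, IFNA1 and IFNA2 were the only IFNA genes listed, and a probe at background gives only an upper limit.

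Among 13 signal transducers, 10 were tested and 8 were time-dependent. Of the 10, 1 was called higher and 2 lower in the second window than in the first, where 15.1% and 14.4% of all tested probes were called. In the last step 4 rose and 1 fell, where the shares were 19.3% and 18.7%, so the transducers did not all move the same way. STAT2, a subunit of ISGF3, had intensities of 2284 at 0 h, 829 to 1041 from 12 to 33 h and 1779 to 2071 at 36 to 45 h, low in the hours in which IFI44 was high. It fell by 1.10 into the second window (2.14-fold, adjusted p = 0.000254) and rose by 1.28 into the last (2.42-fold, adjusted p = 2.98e-05). IRF9, the DNA-binding subunit of the same complex, rose by 0.95 in the last step (1.93-fold, adjusted p = 1.02e-05), to intensities of 669 to 772. IRF1 rose by 0.65 in the same step (1.57-fold, adjusted p = 0.00277). For STAT2 and IRF1 the last window was not called against the first (0.29 and 0.26, adjusted p = 0.233 and 0.21). Over the 16 arrays the correlation with IFI44 was -0.905 for STAT2 and -0.828 for IRF9.

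Of 14 nucleic acid sensors and adaptors, which start interferon production when they meet foreign or misplaced RNA or DNA, 11 were tested and 6 were time-dependent. CGAS, the sensor of cytosolic DNA, had intensities of 260 to 316 from 12 to 33 h, when it was above background on every array. It was at background at 0 and 3 h (intensities of 194 and 205) and on every array at 36 to 45 h. The probe passed the filter only through arrays from 6 to 33 h, so a fall into the last window was favoured by the filter. That fall was 0.91, a change of at least 1.67-fold (adjusted p = 0.0162). TRAF3, an adaptor of these sensors, fell by 1.12 in the same step, at least 1.94-fold (adjusted p = 0.00029). Of the 11, 3 rose and 2 fell in that step, where 19.3% and 18.7% of all tested probes were called.

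Of 44 other interferon-stimulated genes, 33 were tested and 20 were time-dependent. Of the 33, 5 were called higher and 9 lower in the second window than in the first, where 15.1% and 14.4% of all tested probes were called, and 10 rose and 5 fell in the last step, where the shares were 19.3% and 18.7%. ISG15, a ubiquitin-like modifier, fell by 1.28 in the last step (2.43-fold, adjusted p = 5.66e-06), from intensities of 551 to 638 at 24 to 33 h to 325 to 342. HERC5, the ligase that attaches ISG15 to proteins, fell by 1.36 (2.57-fold, adjusted p = 1.12e-06), and without background correction its change was -0.625. ISG20, an exonuclease, fell by 1.90 into the second window (3.74-fold, adjusted p = 5.18e-06) and rose by 0.79 in the last step (adjusted p = 0.00492). HERC6, a relative of HERC5, was lower in the last window than in the first, with means of 7.37 against 8.25 (1.84-fold, adjusted p = 3.92e-05).

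A further 4 genes of that list were named after their values were seen. DDX60, a helicase, was above background on 7 arrays, all between 12 and 33 h, and on none before or after, and so passed the filter only through the hours in which it was high. Its window means were 5.69 ± 0.30, 6.61 ± 0.45, 6.78 ± 0.16 and 5.77 ± 0.24, given here as a description. IFI44L, the paralog and neighbour of IFI44, ran the other way (r = -0.817) and fell by 1.02 into the second window (adjusted p = 0.0112). IFITM2 and IFITM3, membrane proteins that hinder viral entry, rose by 0.68 and 0.69 in the last step (adjusted p = 3.8e-06 and 4.41e-05). IFITM2 and IFITM3 are near-identical in sequence, and their probes may share signal.

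Of 12 genes known for induction by interferon-gamma, 6 were tested and 3 were time-dependent. GBP2, a guanylate-binding protein, had intensities of 263 to 462 from 12 to 33 h and 1116, 1326, 1363 and 1558 at 36 to 45 h. It fell by 1.12 into the second window (adjusted p = 0.00814), rose by 3.04 in the last step (8.22-fold, adjusted p = 7.27e-07, and 2.10 without background correction), and ended 2.07 above the first window. IFI30, a lysosomal thiol reductase, and SOCS1, a feedback inhibitor of JAK kinases from the list of 9 negative regulators, were highest at the start. The last window of IFI30 had a mean of 9.89 against 11.07 in the first (2.25-fold lower, adjusted p = 3.95e-07), and that of SOCS1 was 2.52-fold lower (adjusted p = 2.22e-05). Of the negative regulators 8 were tested and 5 were time-dependent, and of all 8, 2 were higher and 3 lower in the last window than in the first. Of all tested probes 16.2% were called higher and 15% lower in that comparison.

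**Figure D4:**
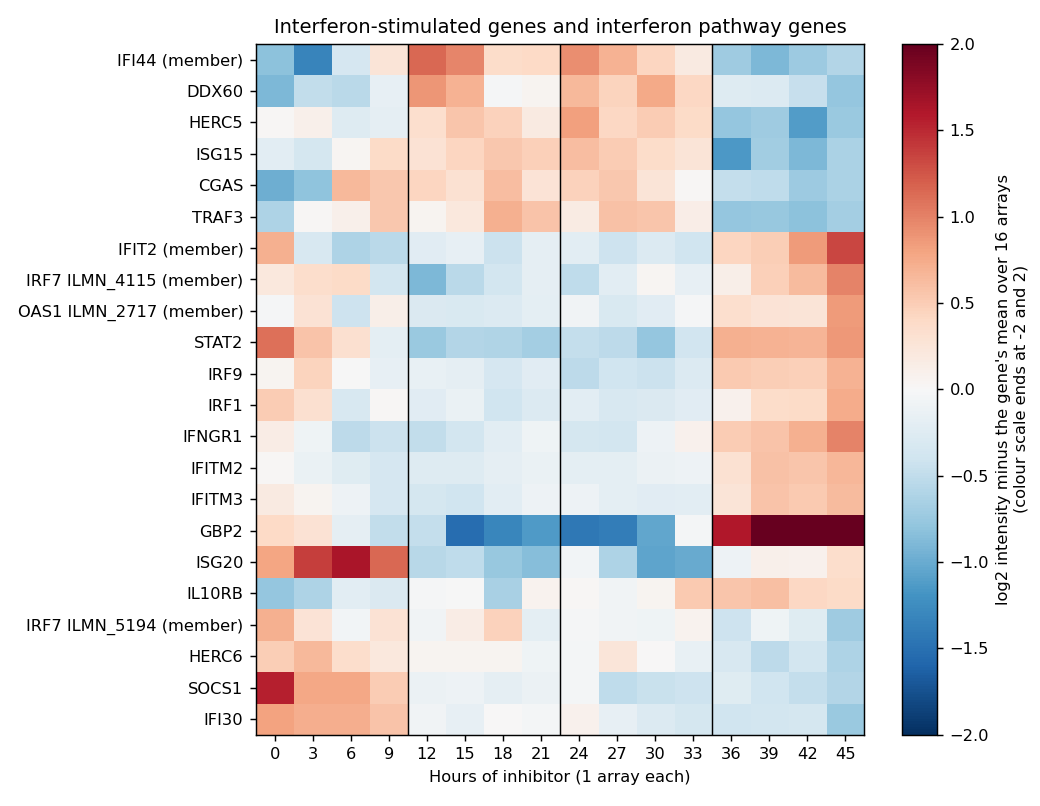
Log2 intensity of member probes and named pathway genes on each array, minus the mean of the probe over 16 arrays (red above, blue below, colour scale ending at -2 and 2), against hours of inhibitor; vertical lines part the windows. ISG15, HERC5 and DDX60 were high in the same hours as IFI44, whereas STAT2, IRF9, IRF1 and GBP2 were high late with IFIT2 and IRF7 ILMN_4115. STAT2 and IRF1 were also high at 0 h.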

How the data were processed

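Total RNA of MCF-10A cells was measured on 16 Illumina human Ref8v2 arrays, 1 for each time point from 0 to 45 h. The authors deposited an intensity for each row and array, not normalized and on a linear scale, together with a detection p-value for each. Quantile normalization is stated in the study's methods, and the summary software and any background correction are not given in the sources used here. Detection p-values that were whole multiples of 1 in 708, within 0.001, marked 19092 single-probe rows; the other 1497 rows combine probes. The negative control mean and SD of each array were inferred from the single-probe rows.

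The deposited intensities were corrected by normexp (offset 16), quantile normalized, log2 transformed and tested in R 4.3.3 with limma 3.58.1 (spline of 3 degrees of freedom, or 4 windows; trended prior, Benjamini-Hochberg adjustment). The offset compresses changes of dim probes. Where the dim side was not above background on any array, the fold was set against the lowest detected single-probe value and written as at least that fold. Scripts were tested on simulated data. Figures were drawn with matplotlib 3.10.9. Of the pathway lists, every receptor and transducer could be named, and from the other lists at most the 4 time-dependent genes with the largest change between the first and last window; DDX60, IFI44L, IFITM2 and IFITM3 were added outside this rule after their values were seen. Some genes of these lists are not reported here. Members and lists were chosen with earlier results of these data known. The labels give no chip, slide or date, so batches were not tested. The number of arrays limits the precision, since no time point has a replicate and p-values rest on the spread around the curve or within windows.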

Additional observations from a re-analysis of the deposited data

Results flagged for a closer look

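For OAS1 ILMN_2717 the 45 h array stood apart from the other 3 arrays of the window from 36 to 45 h. The gap between its log2 value of 7.10 and the nearest of the others, 6.58, was 0.87 of the range of the window. The arrays of a window are successive time points, not replicates, and of 28 combinations of a tested member probe and a window this was the 1 past Dixon's limit, while chance flags about 1 in 20. Without the 45 h array the rise of this probe over 24 to 33 h kept its call.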

How the results depend on the processing

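The window calls of IFI44 and the late rise of IFIT2, OAS1 ILMN_2717 and IRF7 ILMN_4115 were kept under every alternative that tested them. The highest over lowest value of IFI44 was 2.66 without background correction against 5.54, and 4.14 to 5.54 when arrays were left out in turn, the lowest without 3 h. With detection required on all 16 arrays only IFI44 and OAS1 ILMN_2829 were left to test, and the counts of called member probes became 1 (curve), 1 (12 to 21 h against 0 to 9 h), 1 (36 to 45 h against 24 to 33 h) and 0 (last against first window). A straight line in place of the curve called 1 member probe and 11 of 73 list genes, as it cannot follow a rise and fall. With only the 8 arrays compared, 1 member probe was called at 12 to 21 h, and with the step between 21 and 24 h left out, 1 was called between the last and the first window. The shares of all tested probes under these settings, and with arrays left out, are not given here. In the main setting they were 54.7% (curve), 29.5% (12 to 21 h), 38% (last step) and 31.2% (last against first window). The counts thus show only how the calls of these probes depend on the setting.

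Leaving out arrays in turn gave 4 to 7 called by the curve, 1 to 2 at 12 to 21 h (1 without 3, 6, 12 or 15 h), 4 in the last step and 2 to 4 between the last and the first window. Directions that turned were all of differences that were not called. IFIT2 at 12 to 21 h was 0.002 without background correction and -0.20 to 0.24 with arrays left out. The last against the first window was 0.41 for IFI44 with 0 and 3 h set against 42 and 45 h, and -0.44 to 0.091 with arrays left out. With arrays left out, IFIT3 ranged from -0.24 to 0.085 in that comparison and from -0.25 to 0.072 at 12 to 21 h, and at 24 to 33 h IRF7 ILMN_5194 ranged from -0.21 to 0.008 and OAS1 ILMN_2829 from -0.29 to 0.034. The causes were not tested. The last against first window difference of OAS1 ILMN_2717 lost its call without 0, 6 or 45 h, with no filter, with only the 8 arrays compared, with the step left out, and with 0 and 3 h set against 42 and 45 h. OAS1 ILMN_2829 gained calls under median scaling (curve, and last against first window), with 0 and 3 h set against 42 and 45 h (0.76, adjusted p = 0.0381), in the last step with only the 8 arrays compared (adjusted p = 0.0273), in the curve without 3, 6, 18 or 21 h, and in last against first window without 18 or 21 h. Without background correction the last step was 2.10 for GBP2, -0.625 for HERC5 and -0.49 for TRAF3, and each kept its call. No paired analysis was possible because each time point has 1 array. Probes near background limit all values of IFIT1, IFIT3, MX1, OAS2 and OAS3.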
